A study of Mus musculus with 10 samples.

Results

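The 2 libraries that carry replicate number 1, one from cells kept in medium and one from cells given doxorubicin, were compared with the 8 libraries of numbers 2 to 5, each within its own treatment. Members are genes that deviated in the same direction, by at least 2-fold, in both number 1 libraries. There were 105 of them among the 9869 genes tested, 90 higher in number 1 (0.912% of the genes tested) and 15 lower (0.152%). The counts depend on the constant added before taking logs: with 0.1 FPKM in place of 1 they were 157 higher and 34 lower. The members were thus chosen by these deviations, and number 1 itself was singled out because its libraries had been seen to stand apart, so the deviations are given below as descriptions, with no test.

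All 10 libraries hold messenger RNA of the wild-type mouse line RAW264.7, macrophage-like cells that arose from a virus-induced tumour, after 24 h in medium alone (5 libraries) or with added doxorubicin (5 libraries), a drug of the anthracycline class that poisons topoisomerase II. The labels disagree on the dose: 10 nM in the sample titles, 100 nM in the series design, and 1000 nM from the dilution in the treatment text, which adds the drug in dimethyl sulfoxide and names no solvent for the medium cells. Nothing in the labels says what number 1 shares (a day, a passage, a plate or a sequencing run), nor that equal numbers come from 1 culture, and every library comes from a single cell line. Number 1 has 1 library a treatment, so it has no replicate of its own, and whatever set that number apart cannot be told apart from those 2 libraries.

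Values are deposited FPKM (fragments scaled to transcript length and library size). A deviation is the log2(FPKM + 1) of a number 1 library minus the mean of the other 4 libraries of its treatment, so 1 stands for 2-fold, and it understates the ratio of genes near 1 FPKM. Totals ran from 338293 to 356111 FPKM a library, read depth is unknown, and 8207 genes were listed at 0 in doxorubicin 1 against 8763 to 9125 in the other 9 libraries. Ferritin heavy chain, Fth1, took 5.21% of the total in medium 1, 3.88% in doxorubicin 1 and 2.14% to 2.56% elsewhere. The macrophage markers Adgre1, Csf1r and Lyz2 deviated by -0.11, 0.25 and -0.04 in medium 1 and by -0.21, 0.02 and 0.29 in doxorubicin 1. Other macrophage genes moved further, such as Aif1 (-0.77 and -0.42) and Itgb2 (0.63 and 0.74). Of 22 macrophage identity and surface receptor genes tested, 12 were higher and 6 lower in both number 1 libraries (31.9% and 48.9% over all genes). Their medians were 0.22 in medium 1 and 0.20 in doxorubicin 1. Of the 39 marker genes of other cell types, 1 reached a mean of 1 FPKM and 14 were at 0 in every library; the summed FPKM of the lymphocyte markers was 0.175 to 0.397 in number 1 and at most 0.171 in the others, that of fibroblast, epithelial, endothelial and erythroid markers 0.931 to 0.966 against 0.327 to 0.717, that of neutrophil markers 0.759 to 1.62 against 0.877 to 1.81, and that of dendritic cell markers 1.05 to 1.23 against 0.967 to 1.29. The part of other cells in the deviations was not tested.

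Several textbook programmes are named below. In hypoxia the factor HIF escapes degradation and switches on genes for glucose uptake, glycolysis and vessel growth, many through the short DNA core ACGTG, and macrophages also use HIF when activated. NRF2 raises glutathione and detoxifying enzymes through antioxidant response elements, and type I interferon acts through the interferon-stimulated response element, which holds spaced GAAA repeats, to raise antiviral genes. Cells that grow and divide carry transcripts for ribosome assembly, DNA replication and mitosis.

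Promoter stretches are shown for genes of the groups that stood furthest from the other libraries, so that the 2 DNA elements can be seen in place. The first set holds members of the hypoxia and glycolysis lists whose listed promoter carries the HIF core near the start site, and the second holds interferon-stimulated genes that were lower in number 1 with an interferon element in the same position. Sequences are from RefSeq (GRCm38.p6, an earlier build than that of the deposited values), run 5′ to 3′ along the gene's strand, end before the start site, and carry the matched element, on either strand, in capitals.
Bnip3, chr7:138909584-138909638, minus strand: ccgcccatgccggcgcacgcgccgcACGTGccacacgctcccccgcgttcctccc
P4ha2, chr11:54100821-54100875, plus strand: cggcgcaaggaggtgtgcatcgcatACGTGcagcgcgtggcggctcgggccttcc
Ero1a, chr14:45318606-45318660, minus strand: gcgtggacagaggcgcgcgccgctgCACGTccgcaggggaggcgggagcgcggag
Slc2a1, chr4:119108684-119108738, plus strand: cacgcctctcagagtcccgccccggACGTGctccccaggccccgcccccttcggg
Oas3, chr5:120777700-120777759, minus strand: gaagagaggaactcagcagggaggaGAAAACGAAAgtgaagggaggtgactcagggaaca
Oas1a, chr5:120907526-120907570, minus strand: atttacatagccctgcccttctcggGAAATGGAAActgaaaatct
Irgm1, chr11:48871421-48871475, minus strand: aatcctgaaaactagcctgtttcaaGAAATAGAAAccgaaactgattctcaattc

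Across all genes, number 1 was higher in both treatments for 3145 genes (31.9%) and lower in both for 4829 (48.9%), and the signs were opposite for 1895. It lay above all 4 other libraries in both treatments for 2069 genes (21.0%) and below them for 3451 (35.0%). Over all genes, medium 1 had a median deviation of -0.10 and doxorubicin 1 one of -0.05. The median SD within treatments, pooled over the 8 libraries of numbers 2 to 5, was 0.101. Deviations of 2-fold were more frequent in medium 1 (276 higher and 208 lower) than in doxorubicin 1 (127 and 22). A single gene passed 2-fold in both with opposite signs, the predicted model Gm44504 (-1.37 in medium 1 and 1.01 in doxorubicin 1).

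**Figure D1:**
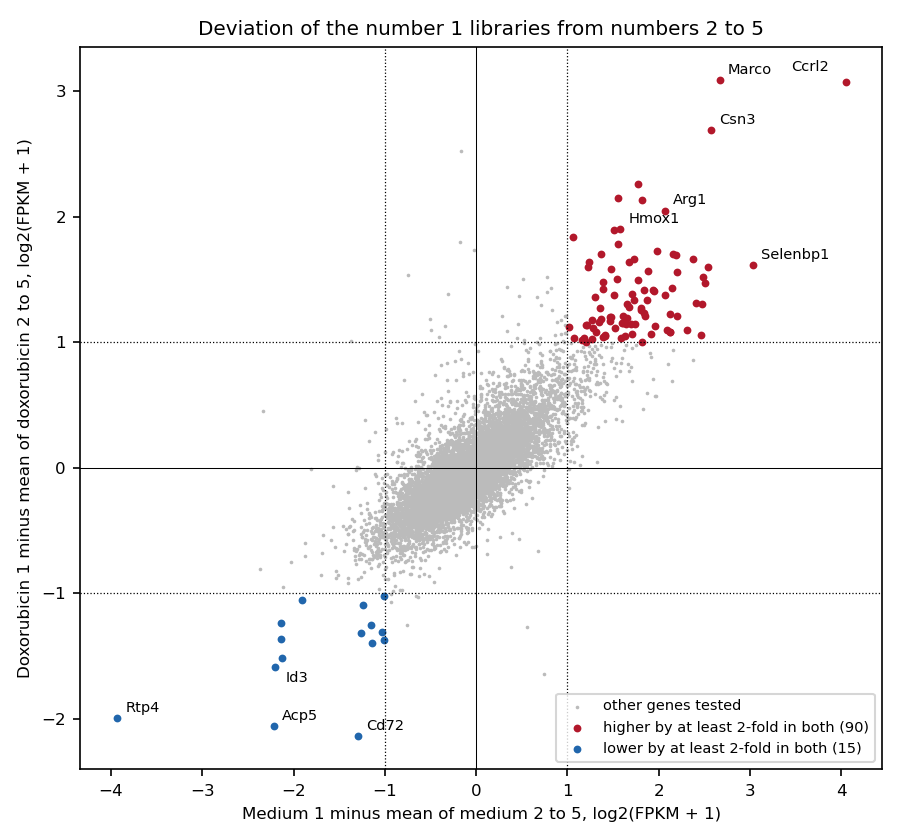
Each point is 1 of the 9869 genes tested, with its deviation in medium 1 on the x axis and in doxorubicin 1 on the y axis, both in log2(FPKM + 1). Dotted lines mark 2-fold; the 90 red and 15 blue points are the genes past it in the same direction in both libraries, and their cloud leans towards larger deviations in medium 1 on the higher side.

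The 90 higher members had median deviations of 1.69 (medium 1) and 1.28 (doxorubicin 1), and 73 of them deviated more in medium 1. The 15 lower members had medians of -1.297 and -1.36. All 105 members lay beyond the range of the other 4 libraries in both treatments (over all genes, 21.0% lay above and 35.0% below). Choosing members by their distance from the mean of those 4 libraries favours this, so nothing is read from it. Just inside the limit on the higher side were Pla2g6 (1.21 and 1.003) and 1600014C23Rik (1.82 and 1.004), and just outside it Wfs1 (1.04 and 0.996) and Natd1 (1.49 and 0.994). On the lower side the nearest were Slco4a1 (-1.005 and -1.37) and Asf1a (-1.01 and -1.02) inside, and Tesk1 (-1.06 and -0.96) and Ccne2 (-2.12 and -0.95) outside. Of the 105 members, 28 belonged to any of the 40 gene lists used. The filter asks for a mean of at least 1 FPKM over all 10 libraries, and 10 of the 90 higher members passed it only through number 1, with a mean under 1 FPKM in numbers 2 to 5 (Arg1, Trim63, P4ha2, Entpd1, Gpr157, Grtp1, Ppp1r3b, Syt8, Tmod1 and 1600014C23Rik). Of the 15 lower members, 4 had a mean under 1 FPKM in number 1.

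The 12 higher members that stood furthest apart were Ccrl2, Marco, Csn3, Arg1, Gsta3, Adgre5, Tspan10, Hpse, Fabp4, F10, Trim63 and Aldh3a1, genes of many kinds. Ccrl2 stood at 41.9 FPKM in medium 1 and at 1.33, 1.52, 1.697 and 1.85 FPKM in medium 2 to 5. Doxorubicin 1 held 27.7 FPKM of Ccrl2, and doxorubicin 2 to 5 held 1.696, 1.57, 3.37 and 3.43 FPKM. Ccrl2, a surface receptor that holds the attractant chemerin, was thus 26.2 times the mean of the other 4 in medium and 11.01 times in doxorubicin. Medium 1 held 20.5 FPKM of Marco, where medium 2 to 5 held 2.24, 2.49, 2.403 and 2.37 FPKM. The level of Marco was 31.9 FPKM in doxorubicin 1 and 1.598, 3.46, 3.08 and 3.68 FPKM in doxorubicin 2 to 5. Marco is a scavenger receptor for bacteria and particles, and its ratio was 8.62 in medium and 10.8 in doxorubicin. The FPKM of Csn3 was 10.5 in medium 1 and 0.675, 1.14, 0.992 and 0.969 in medium 2 to 5, and it was 14.4 in doxorubicin 1 and 1.44, 1.03, 1.59 and 1.51 in doxorubicin 2 to 5. Csn3 encodes the milk protein kappa-casein. The FPKM of Adgre5 was 9.06 in medium 1 and 1.27, 1.54, 3.09 and 2.204 in medium 2 to 5, and it was 13.3 in doxorubicin 1 and 1.71, 1.28, 2.55 and 2.63 in doxorubicin 2 to 5. Adgre5 is the adhesion receptor CD97, and it was among the 17 higher members with the larger deviation in doxorubicin 1.

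Arg1 and Nos2, whose products draw on the same amino acid, were both members, and Arg1 was among those that passed the filter only through number 1. Arg1 stood at 6.504 FPKM in medium 1 and at 0.435, 0.718, 1.13 and 0.966 FPKM in medium 2 to 5. Doxorubicin 1 held 7.098 FPKM of Arg1, and doxorubicin 2 to 5 held 0.687, 0.823, 1.04 and 1.32 FPKM. Arginase 1, the product of Arg1, cleaves arginine to ornithine and marks alternative activation, whereas Nos2 makes nitric oxide from arginine and marks classical activation. Medium 1 held 53.5 FPKM of Nos2, where medium 2 to 5 held 13.1, 10.02, 12.01 and 11.2 FPKM. The level of Nos2 was 27.5 FPKM in doxorubicin 1 and 15.6, 9.96, 12.7 and 12.1 FPKM in doxorubicin 2 to 5. Deviations were 2.07 and 2.05 for Arg1 and 2.12 and 1.08 for Nos2. Of the 13 tested genes for polyamine and arginine metabolism these were the only members. In that list, 6 had a higher and 5 a lower number 1 in both treatments (31.9% and 48.9% over all genes). Amd1, which feeds polyamine synthesis, was lower (-1.21 and -0.54).

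Secreted proteins were also among the leading members. The FPKM of Hpse was 24.5 in medium 1 and 3.85, 4.15, 5.64 and 5.43 in medium 2 to 5, and it was 19.97 in doxorubicin 1 and 4.03, 4.12, 7.34 and 7.06 in doxorubicin 2 to 5. Heparanase, from Hpse, cuts heparan sulfate. The FPKM of F10 was 85.8 in medium 1 and 14.1, 13.5, 18.1 and 17.7 in medium 2 to 5, and it was 50.4 in doxorubicin 1 and 10.5, 13.2, 18.5 and 20.4 in doxorubicin 2 to 5. F10 encodes coagulation factor X, and F7, for factor VII, was a member too (1.36 and 1.27). Tspan10, a tetraspanin, deviated by 1.98 and 1.72, and Trim63, a muscle ubiquitin ligase, by 1.73 and 1.66, with at most 4.58 FPKM in any library and a mean under 1 FPKM in numbers 2 to 5.

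**Figure D2:**
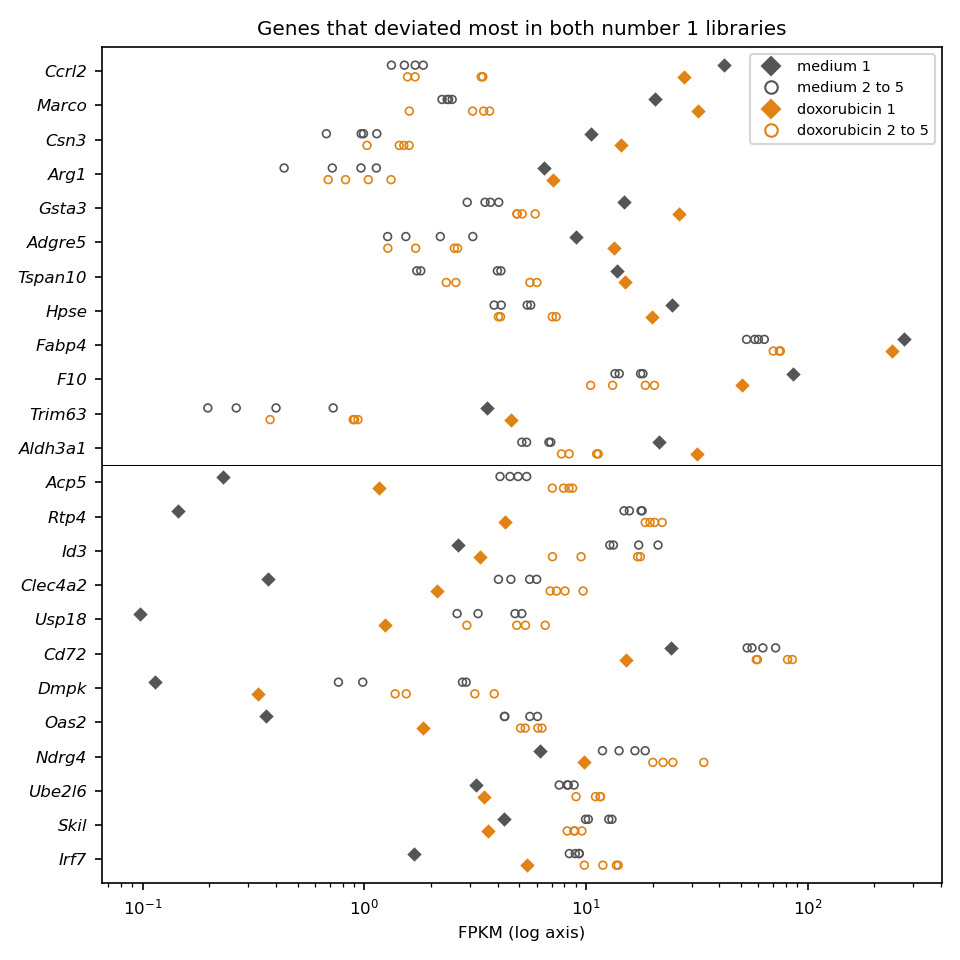
FPKM on a log axis for the 12 higher (top) and 12 lower (bottom) members with the largest smaller deviation; diamonds are number 1, open circles numbers 2 to 5, grey medium and orange doxorubicin. In every row both diamonds lie on the same side of the open circles of their own colour, as for Ccrl2 at 41.9 and 27.7 FPKM.

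The list with the largest share of members was that of HIF targets. All 18 tested HIF targets were higher in both number 1 libraries (31.9% over all genes). Of the 18, 17 lay above all 4 others in both treatments (21.0% over all genes), and 7 were members: Vegfa, Adm, Egln3, Ero1a, P4ha2, Bnip3 and Ndrg1. The median of the 18 was 1.10 for medium 1 and 0.53 for doxorubicin 1, against -0.10 and -0.05 over all genes. Vegfa stood at 94.02 FPKM in medium 1 and at 16.8, 18.3, 25.8 and 27.4 FPKM in medium 2 to 5. Doxorubicin 1 held 36.7 FPKM of Vegfa, and doxorubicin 2 to 5 held 9.51, 11.2, 17.6 and 17.5 FPKM. Vegfa is the main growth factor for blood vessels. Medium 1 held 41.5 FPKM of Adm, where medium 2 to 5 held 6.97, 8.199, 6.49 and 6.33 FPKM. The level of Adm was 11.9 FPKM in doxorubicin 1 and 2.56, 4.24, 4.92 and 5.63 FPKM in doxorubicin 2 to 5. Adrenomedullin, from Adm, is a peptide that widens vessels. The FPKM of Egln3 was 160.1 in medium 1 and 62.2, 58.7, 52.8 and 54.8 in medium 2 to 5, and it was 109.5 in doxorubicin 1 and 43.5, 49.3, 46.9 and 48.9 in doxorubicin 2 to 5. Egln3 is a prolyl hydroxylase that marks HIF for degradation and is itself a HIF target. The FPKM of Ero1a was 552 in medium 1 and 133, 147, 205 and 234 in medium 2 to 5, and it was 244 in doxorubicin 1 and 73.1, 88.5, 138 and 143 in doxorubicin 2 to 5. Ero1a drives disulfide formation in the endoplasmic reticulum; P4ha2, a collagen prolyl hydroxylase that passed the filter only through number 1 (1.35 and 1.16), Bnip3, a mitophagy receptor (1.702 and 1.15), and Ndrg1 (1.59 and 1.03) were the other members. Hilpda, a lipid droplet protein also known as a HIF target but outside the list, was a member at 1.81 and 1.26.

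Glycolysis genes leaned the same way with fewer past 2-fold. Of 19 tested, 17 were higher in both number 1 libraries (31.9% over all genes) and 16 lay above all 4 others (21.0%). Their medians were 0.63 and 0.49, and the glucose transporter Slc2a1 was the only member. The FPKM of Slc2a1 was 453 in medium 1 and 132, 134, 154 and 172 in medium 2 to 5, and it was 255 in doxorubicin 1 and 94.4, 109.99, 124 and 132 in doxorubicin 2 to 5. Hexokinase 2, Hk2, which traps glucose in the cell, deviated by 1.92 in medium 1 and 0.89 in doxorubicin 1, phosphofructokinase Pfkp by 1.21 and 0.77, and Gapdh, at times used as a constant reference gene, by 0.94 and 0.71. Nuclear-encoded subunits of oxidative phosphorylation had no member among 32, with medians of 0.07 and 0.13. Of the 32, 19 were higher and 6 lower in both libraries (31.9% and 48.9% over all genes). For the 13 mitochondrially encoded genes the medians were -0.78 (medium 1) and -0.05 (doxorubicin 1).

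In the listed promoters (250 bases before to 50 after a start site), the HIF core ACGTG, read on both strands, was present for 12 of 15 HIF targets with an entry (80.0%), 13 of 18 glycolysis genes (72.2%), 30 of 74 higher members (40.5%) and 2508 of all 8045 genes (31.2%). The interferon element, searched as 2 copies of GAAA spaced by any 2 bases, was present for 10 of 17 interferon-stimulated genes (58.8%), none of 11 lower members and 299 of all 8045 genes (3.72%). The lower members Usp18 and Oas2 had no listed promoter and were not searched. The antioxidant core TGACNNNGC was present for 10 of 22 NRF2 and glutathione genes (45.5%), 12 of 74 higher members (16.2%) and 17.1% of all genes. These 3 are among 11 motifs counted, chosen with the results known; TACGTG and TCACGTGA, also among the 11, overlap the HIF core. A match describes letters in a window and no binding, and some listed start sites lie inside genes.

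Some detoxifying and antioxidant genes were also members. The NRF2, glutathione and pentose phosphate list had 4 higher members of 25 tested (Gsta3, Hmox1, Gstm1 and Blvrb), where the share over all genes was 0.912%. It had 17 genes higher and 4 lower in both libraries (31.9% and 48.9% over all genes), and medians of 0.20 and 0.32. Medium 1 held 14.9 FPKM of Gsta3, where medium 2 to 5 held 3.71, 2.91, 4.04 and 3.51 FPKM. The level of Gsta3 was 26.2 FPKM in doxorubicin 1 and 4.89, 4.88, 5.16 and 5.904 FPKM in doxorubicin 2 to 5. Gsta3 conjugates glutathione to reactive compounds. Hmox1 stood at 82.2 FPKM in medium 1 and at 29.03, 28.2, 24.5 and 25.8 FPKM in medium 2 to 5. Doxorubicin 1 held 129.6 FPKM of Hmox1, and doxorubicin 2 to 5 held 29.97, 34.7, 34.4 and 36.96 FPKM. Heme oxygenase 1, from Hmox1, breaks down heme, and Blvrb reduces a product of that step (1.22 and 1.14). The FPKM of Gstm1 was 255 in medium 1 and 90.2, 84.5, 92.5 and 89.4 in medium 2 to 5, and it was 316 in doxorubicin 1 and 112, 114, 129 and 129.7 in doxorubicin 2 to 5. Aldh3a1, an aldehyde dehydrogenase (1.67 and 1.64), Gstm2 (1.68 and 1.28), Ephx1, an epoxide hydrolase (1.39 and 1.48), and Ptgr1, a prostaglandin reductase (1.31 and 1.36), were members outside that list. The cystine transporter Slc7a11 deviated by 0.52 in medium 1 and 1.51 in doxorubicin 1. Fth1 itself, at 1.18 and 0.81, and ferritin light chain Ftl1, at 0.88 and 0.61, stayed outside the 2-fold limit.

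Some genes of lipid transport were members, chosen for mention after their values were seen. In the list of fatty acid synthesis and lipid storage, 10 of 21 were higher and 9 lower in both libraries (31.9% and 48.9% over all genes). The medians of that list were -0.04 and 0.02. Medium 1 held 272 FPKM of Fabp4, where medium 2 to 5 held 63.8, 57.8, 60.02 and 53.1 FPKM. The level of Fabp4 was 241 FPKM in doxorubicin 1 and 75.4, 70.1, 74.5 and 74.97 FPKM in doxorubicin 2 to 5. Fabp4 binds fatty acids and is abundant in fat cells and macrophages; Fabp3, of the same family, deviated by 1.51 and 1.896, and Fabp5 by 1.24 and 0.93. The FPKM of Apoe was 35.2 in medium 1 and 12.1, 11.5, 18.5 and 17.02 in medium 2 to 5, and it was 63.4 in doxorubicin 1 and 17.6, 16.9, 23.9 and 23.3 in doxorubicin 2 to 5. Apoe carries cholesterol out of macrophages, and its neighbour Apoc4 deviated by 1.24 and 1.64. Scd1, which desaturates fatty acids (2.12 and 1.23), Insig1, which restrains sterol synthesis (2.31 and 1.100), and the lipid-sensing receptor Ppard (1.78 and 1.497) were members. In the sterol synthesis list, 7 of 20 were higher and 7 lower in both libraries (31.9% and 48.9% over all genes). Of 27 lysosomal genes 20 were higher (31.9% over all genes) and 18 lay above all 4 others (21.0%), with medians of 0.33 and 0.22. The protease gene Ctsd was a member (1.07 and 1.04). Hyal1, a lysosomal hyaluronidase outside the list, deviated by 2.49 and 1.52.

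Stress and signalling genes among the higher members included Ddit4, which restrains mTORC1 (1.89 and 1.57), the stress cytokine Gdf15 (1.06 and 1.84), Plk2 (2.197 and 1.56), the early response gene Ier3 (1.41 and 1.06) and Mxd1, a partner of MAX that opposes MYC (2.47 and 1.302). Gdf15 stood at 29.4 FPKM in medium 1 and at 7.69, 9.601, 21.3 and 21.1 FPKM in medium 2 to 5. Doxorubicin 1 held 49.5 FPKM of Gdf15, and doxorubicin 2 to 5 held 7.79, 8.27, 20.8 and 21.2 FPKM. For Gdf15 the numbers 4 and 5 lay between number 1 and numbers 2 and 3. Selenbp1, for a selenium-binding protein, deviated by 3.04 and 1.62.

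**Figure D3:**
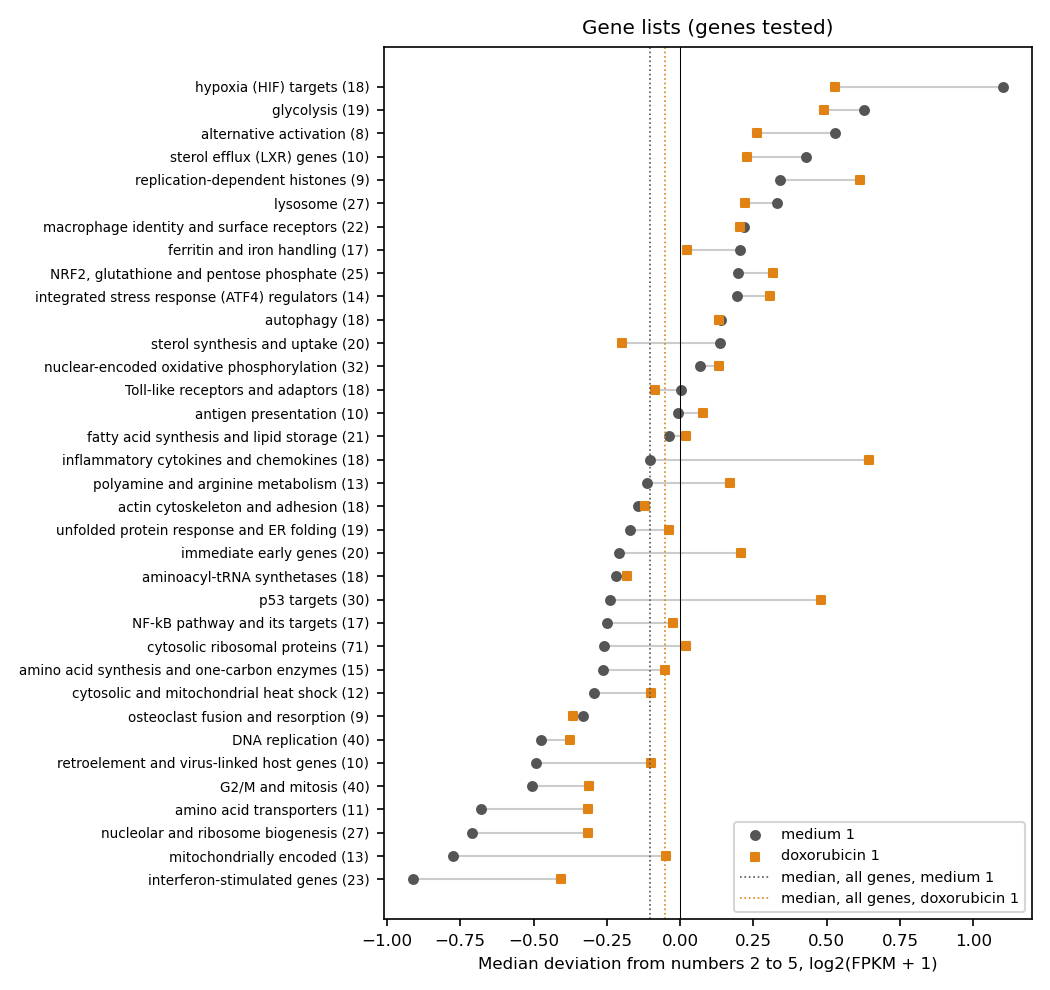
Median deviation in medium 1 (grey circles) and doxorubicin 1 (orange squares) for each gene list with at least 5 genes tested, on the log2(FPKM + 1) scale, with the number tested in brackets and dotted lines at the medians of all genes. In medium 1 HIF targets lie furthest right (1.10) and interferon-stimulated genes furthest left (-0.91); in doxorubicin 1 inflammatory cytokines and chemokines (0.65) and replication-dependent histones (0.61) lie to the right of HIF targets (0.53).

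On the lower side, interferon genes led. Of 23 interferon-stimulated genes tested, 16 were lower in both number 1 libraries (48.9% over all genes). Of the 23, 14 lay below all 4 others in both treatments (35.0% over all genes), and Usp18, Oas2 and Irf7 were members. The medians of the list were -0.91 and -0.41. Medium 1 held 0.144 FPKM of Rtp4, where medium 2 to 5 held 17.9, 17.7, 14.9 and 15.7 FPKM. The level of Rtp4 was 4.29 FPKM in doxorubicin 1 and 18.5, 22.1, 20.4 and 19.5 FPKM in doxorubicin 2 to 5. Rtp4, an interferon-induced protein outside the list, was in medium 1 the gene furthest below the other libraries among the members. Usp18 stood at 0.0973 FPKM in medium 1 and at 2.62, 3.26, 5.14 and 4.79 FPKM in medium 2 to 5. Doxorubicin 1 held 1.24 FPKM of Usp18, and doxorubicin 2 to 5 held 2.903, 4.87, 5.34 and 6.55 FPKM. Usp18 removes the ubiquitin-like ISG15 from proteins and damps interferon signalling, and Ube2l6, which helps to attach ISG15, was also a member (-1.14 and -1.395). The FPKM of Irf7 was 1.67 in medium 1 and 9.302, 9.33, 8.42 and 8.95 in medium 2 to 5, and it was 5.397 in doxorubicin 1 and 9.84, 13.98, 11.9 and 13.7 in doxorubicin 2 to 5. Irf7 is the transcription factor that amplifies interferon production. The FPKM of Oas2 was 0.361 in medium 1 and 5.59, 6.05, 4.29 and 4.305 in medium 2 to 5, and it was 1.83 in doxorubicin 1 and 5.07, 6.07, 5.32 and 6.33 in doxorubicin 2 to 5. Oas2 and Oas3 make the second messenger that activates an antiviral nuclease, and Oas3, whose promoter is shown above, deviated by -1.699 and -0.86. The interferon-stimulated list was not uniform: 2 genes were higher in both number 1 libraries, and the largest value in doxorubicin 1 was 1.44.

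The other lower members were receptors and regulators of several kinds. Acp5 stood at 0.2299 FPKM in medium 1 and at 5.403, 4.95, 4.098 and 4.54 FPKM in medium 2 to 5. Doxorubicin 1 held 1.16 FPKM of Acp5, and doxorubicin 2 to 5 held 8.71, 8.39, 7.06 and 7.93 FPKM. Acp5 encodes the acid phosphatase that marks osteoclasts, which arise from macrophage precursors. Of 9 osteoclast genes tested, 6 were lower in both libraries (48.9% over all genes) and Acp5 was the only member, with medians of -0.33 and -0.37. Ocstamp, a fusion protein, deviated by -0.84 and -0.83, while the proton pump subunit Atp6v0d2 was higher (0.81 and 0.403). Medium 1 held 2.65 FPKM of Id3, where medium 2 to 5 held 21.2, 17.3, 13.3 and 12.8 FPKM. The level of Id3 was 3.32 FPKM in doxorubicin 1 and 17.6, 17.1, 7.07 and 9.51 FPKM in doxorubicin 2 to 5. Id3 blocks helix-loop-helix transcription factors. The FPKM of Cd72 was 24.1 in medium 1 and 71.8, 62.9, 53.4 and 56.1 in medium 2 to 5, and it was 15.2 in doxorubicin 1 and 85.4, 81.3, 58.7 and 59.4 in doxorubicin 2 to 5. Cd72 and Clec4a2 (-2.13 and -1.52) are inhibitory C-type lectin receptors. Skil, a repressor of SMAD signalling, deviated by -1.24 and -1.09, and Smad3 was among the higher members (1.87 and 1.34). The kinase gene Dmpk (-1.27 and -1.32) and Ndrg4 (-1.16 and -1.25) complete the 12 that stood furthest apart.

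Growth and division genes were lower in number 1 in nearly every gene of these lists, with no gene of the DNA replication, mitosis or ribosome biogenesis lists past 2-fold in both libraries. Over all genes, 48.9% were lower in both libraries and 35.0% lay below all 4 others in both treatments. Of 40 DNA replication genes, 38 were lower in both libraries and 37 lay below all 4 others, with medians of -0.47 and -0.37 and no member. Of 40 genes of G2/M and mitosis, 36 were lower and 33 lay below, with medians of -0.51 and -0.31, and of 27 ribosome biogenesis genes 26 were lower and 20 lay below, with medians of -0.71 and -0.31. Ccne1 stood at 5.395 FPKM in medium 1 and at 36.2, 33.2, 18.7 and 17.2 FPKM in medium 2 to 5. Doxorubicin 1 held 20.5 FPKM of Ccne1, and doxorubicin 2 to 5 held 41.3, 43.1, 28.95 and 29.6 FPKM. Cyclin E1, from Ccne1, opens S phase; in both treatments numbers 4 and 5 lay between number 1 and numbers 2 and 3. The FPKM of Ccna2 was 24.3 in medium 1 and 53.9, 52.02, 41.4 and 39.7 in medium 2 to 5, and it was 27.00 in doxorubicin 1 and 43.2, 43.8, 41.6 and 41.03 in doxorubicin 2 to 5. Ccna2 encodes cyclin A2, of S phase and mitosis. Rrs1 and Ddx21, which build ribosomes in the nucleolus, deviated by -1.42 and -1.21 in medium 1 and by -0.604 and -0.56 in doxorubicin 1. The 9 replication-dependent histones tested, whose messages mostly lack poly(A) tails, had medians of 0.34 and 0.61, and 6 were higher in both libraries (31.9% over all genes).

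**Figure D4:**
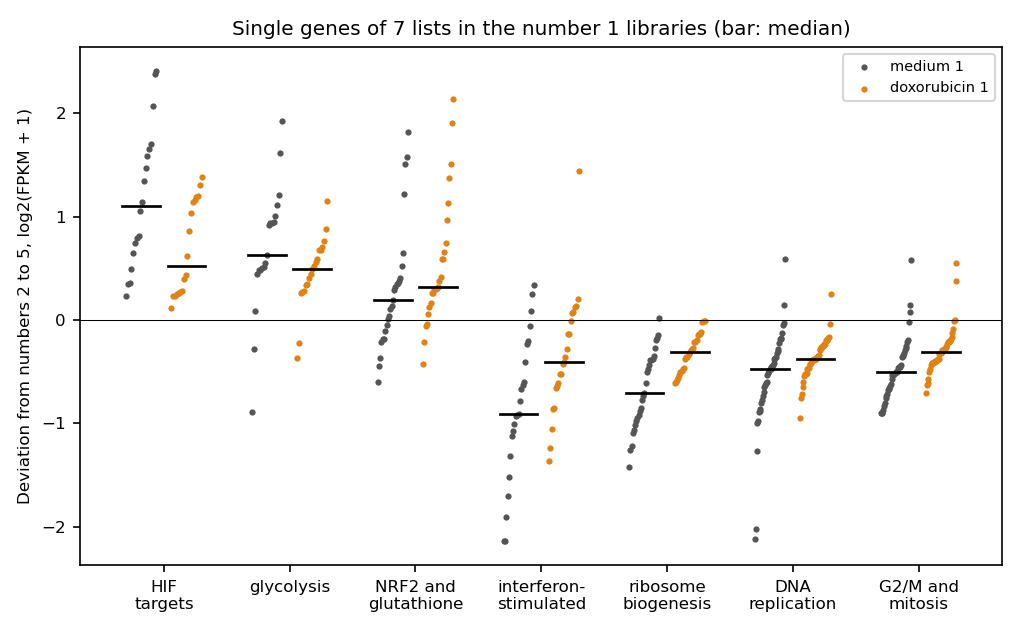
Deviation of every tested gene of 7 lists, in log2(FPKM + 1), with medium 1 in grey and doxorubicin 1 in orange, genes sorted by value within each column and a bar at the median. No HIF target falls below 0 in either library, whereas interferon-stimulated genes spread from -2.14 to 0.34 in medium 1 and from -1.36 to 1.44 in doxorubicin 1.

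Numbers 2 to 5 were not uniform for these genes. For 65 of the 90 higher members, the mean of numbers 4 and 5 lay above that of numbers 2 and 3 in both treatments and for 9 it lay below in both; over all genes the shares were 43.4% above and 31.3% below. For 9 of the 15 lower members numbers 4 and 5 lay below numbers 2 and 3 in both treatments, and for 1 they lay above. The median gap between the 2 pairs was 0.19 in medium and 0.29 in doxorubicin for higher members, and -0.27 and -0.18 for lower members. Against numbers 2 and 3 alone 142 higher genes passed the limit, and against numbers 4 and 5 alone 72. Higher members had a median transcript length of 2694 bases and a median GC content of 53.2%, lower members 2583 bases and 52.4%, and all genes tested 3386 bases and 49.5%; the part of length and GC content in the deviations was not tested.

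Whether doxorubicin moved the same genes could be tested without number 1, in the 8 libraries of numbers 2 to 5 (limma with a mean-variance trend, Benjamini-Hochberg adjustment over all 9869 genes, two-sided, adjusted p below 0.05). That fit held treatment alone, with no pairing of numbers. Doxorubicin raised 283 genes (2.87%) and lowered 273 (2.77%). Of the 90 higher members 15 rose (Gsta3, Fabp4, Aldh3a1, Hmox1, Fabp3, Baiap2, Ephx1, Gstm1, Gstm2, Ninj1, Cgnl1, Ndst1, Rasd2, Pld3 and Pla2g6), and the HIF target Egln3 fell (log2 difference -0.27 ± 0.06, SE, adjusted p = 0.0407). Of the 15 lower members Irf7, Ube2l6, Ndrg4, Clec4a2 and Acp5 rose and the histone chaperone gene Asf1a fell. Ephx1 had the largest rise of these, with 5.798, 5.48, 5.95 and 5.26 FPKM in medium 2 to 5 and 14.02, 14.8, 19.5 and 20.1 FPKM in doxorubicin 2 to 5 (log2 difference 1.44 ± 0.11, SE, adjusted p = 0.000605 by limma). The ranges of Ephx1 did not overlap. Gstm1 rose by 0.44 ± 0.06 (SE, adjusted p = 0.00563 by limma) and Acp5 by 0.65 ± 0.09 (SE, adjusted p = 0.005 by limma). Ccrl2 and Marco, the members furthest apart, had log2 differences of 0.39 ± 0.19 and 0.19 ± 0.16 that did not pass (adjusted p = 0.206 and 0.471 by limma); with the replicate block the adjusted p was 0.0252 and 0.229. Of the 23 interferon-stimulated genes 8 rose with doxorubicin in numbers 2 to 5 and none fell (13 and 1 with the block), and of the 18 HIF targets none rose and 1 fell (0 and 12 with the block).

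These counts depended on single libraries and on the pairing of numbers. When pairs of equal number were fitted as a block, 1010 genes rose (10.2%) and 1817 fell (18.4%), 31 higher members rose and 16 fell, and 11 lower members rose and 3 fell. Without medium 3, 4 or 5 or doxorubicin 3, 4 or 5 in turn, 106 to 174 genes rose, and without any 1 library other than medium 2, 40 to 123 fell. When each library was shifted to the same median, 76.2% of the calls were rises (442 against 138), where the unshifted values gave 50.9%. The same shift left 108 higher and 12 lower members.

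The effect of doxorubicin in number 1 was set against that in numbers 2 to 5 with an interaction term (limma, all 10 libraries), which takes the spread of number 1 from the other 8 libraries. This difference equals the deviation in doxorubicin 1 minus that in medium 1, so it is made of the values for which number 1 was singled out, with 1 library in each arm. What passed the threshold is therefore given as a description of these 2 libraries, with no p-value, and does not show that doxorubicin acts otherwise in number 1. The difference was past the threshold and positive for 145 genes (1.47%), and negative for 61 (0.618%). Thbs1, for the matrix protein thrombospondin 1, and the p53 targets Aen and Btg2 were among the largest positive differences. The FPKM of Thbs1 was 0.654 in medium 1 and 0.746, 0.762, 0.934 and 0.9803 in medium 2 to 5, and it was 8.69 in doxorubicin 1 and 0.347, 0.729, 0.775 and 0.939 in doxorubicin 2 to 5. Thbs1 passed the filter only through doxorubicin 1, as every other library held under 1 FPKM of it. Its doxorubicin minus medium difference was 2.55 within number 1 and -0.37, -0.03, -0.12 and -0.03 within numbers 2 to 5, a gap of 2.69 ± 0.25 (SE). The Cdkn1a gene, for the cell cycle inhibitor p21, stood at 42.5 FPKM in medium 1 and 212 in doxorubicin 1, with 52.1, 52.1, 54.4 and 54.03 in medium 2 to 5 and 120.3, 129, 132 and 143 in doxorubicin 2 to 5. Its effect was 2.29 in number 1 and 1.19, 1.29, 1.26 and 1.38 in the others (difference 1.01 ± 0.12, SE).

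Of 30 p53 targets tested, 10 were among the 145 genes with a more positive difference (1.47% of all genes) and none among the 61; medium 1 and doxorubicin 1 deviated by a median of -0.24 and 0.48 over these targets. The exonuclease gene Aen had a difference of 1.42 ± 0.12 (SE), the antiproliferative gene Btg2 one of 1.46 ± 0.19 and cyclin G1, Ccng1, one of 1.19 ± 0.24. For Aen it was medium 1 that stood apart, at 3.14 FPKM with 11.3, 11.3, 11.03 and 11.5 in medium 2 to 5, while doxorubicin 1 held 13.5 with 15.3, 16.2, 14.3 and 14.3 in doxorubicin 2 to 5. For Btg2 it was mainly doxorubicin 1, at 6.997 FPKM with 2.74, 2.63, 3.01 and 3.14 in doxorubicin 2 to 5. The count of p53 targets was 7 after the median shift, 18 with the replicate block and 6 without doxorubicin 3, 4 or 5 in turn. The ribosome biogenesis list had 7 such genes of 27 and the mitochondrially encoded list 4 of 13; without doxorubicin 5 neither list had one, and after the median shift each had 2.

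The members were chosen on both deviations, so nothing is read from how many of them passed. Of the 15 lower members only Rtp4 did, with a doxorubicin minus medium value of 2.21 in number 1 and 0.05, 0.30, 0.43 and 0.29 in numbers 2 to 5. Of the 90 higher members Adamts1, Abhd6, Amz1 and Rasd2 passed, all with a negative difference. The FPKM of Rasd2 was 53.2 in medium 1 and 10.1, 8.68, 8.76 and 7.89 in medium 2 to 5, and it was 26.4 in doxorubicin 1 and 11.9, 11.3, 13.6 and 11.9 in doxorubicin 2 to 5. Rasd2, a small GTPase gene, rose with doxorubicin in numbers 2 to 5 (0.42 ± 0.08, SE, adjusted p = 0.0204 by limma) and was lower in doxorubicin 1 than in medium 1. Hexokinase 2, Hk2, had a doxorubicin minus medium value of -1.16 in number 1 and -0.24, -0.13, -0.06 and -0.08 in the others. With the replicate block, 993 genes were more positive (10.1%) and 470 more negative (4.76%), and among HIF targets 11 of 18 were more negative, where the fit without the block called 1. Of the higher members 37 were then more negative and 2 more positive, and of the lower members 4 were more positive and 1 more negative.

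**Figure D5:**
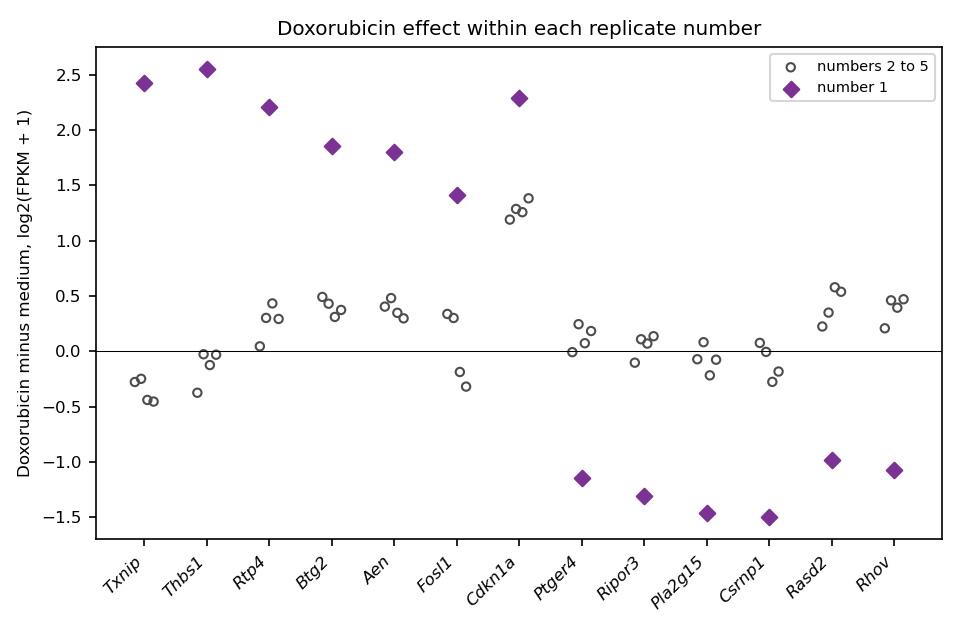
Doxorubicin minus medium, in log2(FPKM + 1), within number 1 (purple diamonds) and within numbers 2 to 5 (open circles), for the 12 genes with the largest differences past the threshold and for Cdkn1a. Each diamond lies outside its 4 circles, as for Thbs1 at 2.55, and for Cdkn1a all 5 values are above 0.

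The interaction counts were sensitive to single libraries and to scaling. Without any 1 library of numbers 2 to 5 other than doxorubicin 2, 13 to 76 genes were more positive and 6 to 39 more negative. The median shift gave 46 and 80, so that 36.5% of the calls were more positive instead of 70.4%, and quantile normalization gave 135 and 128 (51.3%).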

How the data were processed

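RNA was enriched on oligo(dT) beads, per the labels' protocols. The authors deposited FPKM values for 22186 genes by symbol, with GRCm39 as the genome build, per the submitters' processing notes; aligner, quantifier and annotation are not given in the sources used here. Genes averaging 1 FPKM or more were kept, and values were analysed as log2(FPKM + 1) with limma 3.58.1 in R 4.3.3, tested first on simulated data. The genes, lists, motifs and tests were chosen with earlier results of these data known. Named are the 12 highest and 12 lowest members by the smaller deviation (predicted models left out), up to 4 genes a list, the largest test results, 9 fixed genes, and other members chosen after their values were seen. The main fits did not pair libraries, and equal numbers were paired only in the replicate block and in values within a number. Over all 10 libraries, deviations of equal numbers from the treatment means correlated at 0.79, 0.70, 0.67, 0.52 and 0.55. Medium 2 with doxorubicin 3 (0.69) and medium 4 with doxorubicin 5 (0.51) correlated about as closely. Among numbers 2 to 5 alone, equal numbers correlated at 0.61, 0.50, 0.53 and 0.57. There, numbers 2 and 3 correlated with each other at 0.41 and 0.55, and 4 and 5 at 0.52 and 0.53. Across these 2 sets the values were -0.63 to -0.46. Separate cultures are not stated in the labels; p-values then cover just the variation among these libraries, which may be technical. Lengths and GC content came from GENCODE M21, matched by symbol for 98.3% of genes; 19 list genes were matched by older symbols.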

Additional observations from a re-analysis of the deposited data

Results flagged for a closer look

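In 2 groups of 4 libraries Dixon's test, which sets a gap against the range of the group, flagged a single library. The test flags about 1 group in 20 by chance, so nothing is read from these 2 flags. For Fabp4 in doxorubicin 2 to 5 (75.4, 70.1, 74.5 and 74.97 FPKM), the gap between doxorubicin 3 and the next library was 0.844 of the range of the 4 libraries on the log2 scale. For Trim63 in the same 4 libraries (0.905, 0.376, 0.892 and 0.937 FPKM) it was 0.920, again at doxorubicin 3. Without doxorubicin 3 the mean deviation of number 1 was 1.93 for Fabp4 and 1.64 for Trim63, where it was 1.95 and 1.70 with it.

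The doxorubicin minus medium value of number 1 was set against that of numbers 2 to 5 by limma's interaction term, and the following genes had the largest differences past its threshold. Number 1 was singled out for standing apart and has 1 library in each arm, so these are values of 2 libraries and no independent evidence of a different response. The value was more positive in number 1 for Txnip, which binds thioredoxin, by 2.78, for Thbs1 by 2.69 and for Rtp4 by 1.94. It was also more positive for Btg2 by 1.46, for Aen by 1.42 and for the AP-1 subunit gene Fosl1 by 1.38. Thbs1 passed the filter only through doxorubicin 1. The FPKM of Txnip was 28.97 in medium 1 and 101, 121, 199.7 and 206 in medium 2 to 5, and it was 160.3 in doxorubicin 1 and 83.3, 101, 147 and 150.1 in doxorubicin 2 to 5. The doxorubicin minus medium value was more negative in number 1 for Rhov by -1.46, for Rasd2 by -1.41 and for Csrnp1 by -1.40. It was also more negative for the lysosomal phospholipase gene Pla2g15 by -1.39, for Ripor3 by -1.36 and for the prostaglandin E2 receptor gene Ptger4 by -1.27. For these 6 genes it was medium 1 that stood furthest from the other libraries, as for Csrnp1 at 13.6 FPKM with 2.403, 2.47, 3.03 and 3.01 in medium 2 to 5.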

How the results depend on the processing

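No named member's mean deviation and no named doxorubicin or interaction difference changed sign under the settings run; among named genes that are no members, the mean deviations of Creld2, Hsph1, Gpt2 and Plekhh3 did in 1 setting each and that of Pabpc4 in 5. Members numbered 157 higher and 34 lower with a pseudocount of 0.1 FPKM, 371 and 186 at 1.5-fold, and 4 and 1 at 4-fold. Against numbers 2 and 3 alone 142 were higher. Leaving out 1 library of numbers 2 to 5 gave 80 to 101 higher and 12 to 18 lower members. For doxorubicin in numbers 2 to 5 (283 rises and 273 falls), the median shift gave 442 and 138, library weights 418 falls, the replicate block 1010 and 1817, and leaving out 1 library 106 to 339 rises and 40 to 312 falls. For the interaction (145 more positive and 61 more negative), no filter on low values gave 798 and 250, the median shift 46 more positive, quantile normalization 128 more negative, the replicate block 993 and 470, and leaving out 1 library 13 to 113 and 6 to 59. Of the 12 interaction genes named, Txnip missed the threshold in 10 of 13 settings, Fosl1 in 7, Rhov in 6, Pla2g15 in 4, Ripor3 in 2 and Ptger4 in 1. At an unadjusted p of 0.05 by limma, 2684 genes passed for doxorubicin in numbers 2 to 5. The causes were not tested. Read depth is unknown, so no limit of detection can be given for genes near 0 FPKM, and number 1 has 1 library a treatment.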
